A study of Homo sapiens with 24 samples.

Results

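The polysomal-to-total ratio was compared between A549 cells given an siRNA against RICTOR (siRIC) and A549 cells given a control siRNA (siNT). The comparison used the 12 A549 libraries of the 24 in the series and covered all 15396 genes that passed a filter on low counts, of 60666 in the deposited table. A549 is a human lung adenocarcinoma line. Its cells were kept in RPMI medium with fetal bovine serum, L-glutamine and antibiotics and were transfected with the siRNA. The labels give the genotype as Wild type for siNT and Rictor knockdown for siRIC. The sources used here do not give the siRNA sequences, the dose or the time after transfection. RNA was taken from the input (total RNA) and from the polysomal fractions, which made 4 groups (siNT total, siNT polysomal, siRIC total and siRIC polysomal) of 3 libraries each. The series also holds the same 4 groups from H460, another human lung cancer line, which are used below only to show where A549 differed. The labels number the libraries of a group 1 to 3 and give that number as a batch. The polysomal and the total library with the same siRNA and number are called a culture here, and each of the 6 cultures gave 1 log2 ratio per gene. Nothing in the labels says that the numbers were grown separately, so the p-values speak of the spread among these libraries, which may be technical.

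RICTOR is the subunit that defines mTOR complex 2 (mTORC2), a kinase complex that phosphorylates AKT, SGK1 and protein kinase C enzymes. The related complex mTORC1 controls the initiation of translation through the 4E-BP proteins and S6 kinases. Messages with a 5′ terminal oligopyrimidine tract (5′ TOP), which encode ribosomal proteins and translation factors, are the ones known to depend most on mTORC1. A polysome is a message that carries several ribosomes. A gene's polysomal-to-total ratio is its share of the polysomal RNA over its share of the input RNA, and it moves when a larger or smaller part of the message is bound to several ribosomes. Because each library was scaled to its own total, a shift common to all genes is not visible in these ratios, and total polysome content was not measured in the files used here.

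The knockdown and the cell identity were checked first. RICTOR had 27.5, 21.6 and 29.4 CPM (counts scaled to library size) in the siNT polysomal libraries 1, 2 and 3 and 13.2, 5.41 and 9.30 CPM in the siRIC polysomal libraries. Total RNA held 33.8, 28.3 and 35.3 CPM in siNT against 13.3, 10.8 and 13.3 CPM in siRIC. It was lower with siRIC in each fraction and number, with no overlap between the groups. All 10 epithelial and A549 markers were measured, among them KRT8 and ALDH1A1 at 2350 CPM or more in every library. EPCAM was low, at 3.08 to 7.63 CPM, and KRT19 stayed at 1.08 CPM or less. The 10 markers summed to 36000 to 36800 CPM in siNT polysomal, 17800 to 29100 in siRIC polysomal, 17200 to 20200 in siNT total and 10600 to 14000 in siRIC total RNA. They were thus lower with siRIC in both fractions, and their part in the ratios was not tested. Of other cell types, the endothelial markers CDH5 and KDR and the leukocyte marker CD3E were at 0 in all 12 libraries, and the 4 endothelial markers together reached at most 0.0907 CPM. The 5 leukocyte markers summed to 31.3 to 62.4 CPM, carried by CD68, while PTPRC did not exceed 0.044 CPM. The 5 fibroblast markers summed to 5.16 to 11 CPM, carried by COL1A1. Library totals were 19456433 to 26550160 estimated counts, and mitochondrially encoded genes took 2.42% to 4.17% of counts in polysomal and 14.4% to 18% in total RNA.

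The siRIC polysomal library 1 stood apart. Chi-square per degree of freedom against the other siRIC polysomal libraries was 82.8 and 103, while every other pair within a group lay between 8.82 and 35.9. Across genes, the ratios of its culture correlated with those of the other cultures at a mean r of 0.755, and the other 5 cultures had mean r of 0.830 to 0.862. This is a description over genes, which are not independent replicates, and the cultures share libraries of similar depth. A leave-out value below is the value without this library. It is given for each gene list, and for a named gene where it differs from the value with all libraries by over 1.5 times or in sign.

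No gene's ratio passed the test between siRIC and siNT. edgeR's quasi-likelihood test called 0 genes higher and 0 lower (0% of 15396), the smallest adjusted p was 1 and the smallest unadjusted p was 0.000682. At an unadjusted p under 0.05 there were 177 genes (1.15%), of which 84 (0.546%) were higher and 93 (0.604%) lower. This is a smaller share than such a threshold lets through when no gene differs, so the fit may be conservative and miss changes. DESeq2 called 1 entry, 5_8S_rRNA, and limma on the 6 culture ratios called 0. Without the siRIC polysomal library 1, edgeR again called 0 genes, with 762 (4.85%) at an unadjusted p under 0.05. With the replicate number as a block it called 0, with 346 (2.25%). The block without that library, a fit chosen after seeing the data, called 1 entry, with 2019 (12.8%) at an unadjusted p under 0.05. The median change over all genes was 0.02 on the log2 scale, with quartiles of −0.14 and 0.17, and 53.1% of changes were above 0. In 468 genes (3.04%) all 3 siRIC cultures lay above all 3 siNT cultures, and in 713 (4.63%) all 3 lay below.

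The size of change is bounded gene by gene within the edgeR fit of all 12 libraries. That fit has no block and keeps the siRIC polysomal library 1, and other fits would give other intervals. The median standard error (SE) of a gene's log2 ratio change was 0.26, and the 95% interval lay within −1 and 1, that is within a doubling and a halving of the ratio, for 11147 genes (72.4%). Among the 10719 genes whose mean reached 5 CPM, 10265 (95.8%) had such an interval, and 18 genes (0.168%) had an estimated change beyond −1 or 1. The ratios themselves spread far more widely than their changes. Over those 10719 genes the SD of the mean log2 ratio was 0.61 with siNT and 0.66 with siRIC, and the SD of the change was 0.24. The mean ratios with siNT and with siRIC had r = 0.946 across genes. Of 431 genes with a siNT log2 ratio above 1, 430 had a siRIC ratio above 0, and of 374 genes below −1 with siNT, 371 were below 0 with siRIC.

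**Figure D1:**
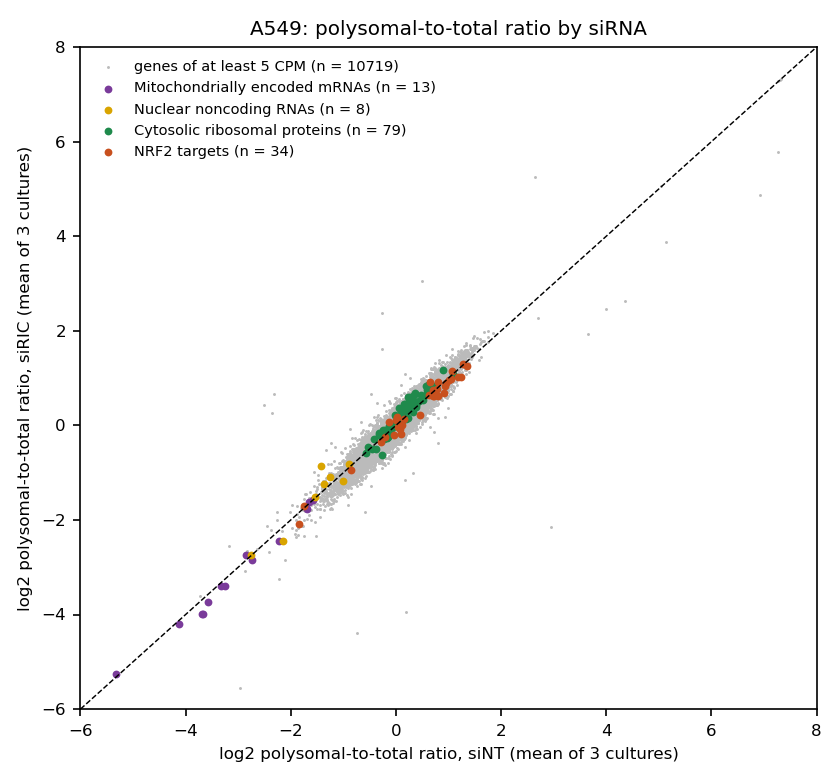
Each point is 1 gene whose mean reached 5 CPM (n = 10719), with the mean log2 polysomal-to-total ratio of the 3 siNT cultures on the x axis and of the 3 siRIC cultures on the y axis. The dashed line marks equal ratios. Points follow it, with the mitochondrially encoded mRNAs at its lower left and r = 0.946 across genes.

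The mRNA of RICTOR itself was less abundant with siRIC, but its ratio did not pass the test. Its log2 ratio was −0.30, −0.39 and −0.26 in siNT cultures 1, 2 and 3 and −0.01, −0.99 and −0.51 in the siRIC cultures. The siRIC values lay on both sides of the siNT values. The change was −0.11 ± 0.32 (SE, n = 3 libraries per group, 95% interval −0.80 to 0.57, edgeR adjusted p = 1), and the leave-out value was −0.43. Its direction turned without the siRIC polysomal library 2, where it was 0.15. RICTOR lies on GRCh38 chromosome 5 at 38937920 to 39074399.

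The other mTORC2 subunits did not pass either. Over the 7 genes of the list, RICTOR among them, 3 changes were above 0 and 4 below, with 0 called. The median was −0.11 (leave-out −0.03), beside 0.02 over all genes, and this −0.11 is RICTOR's own change. MLST8, shared by both mTOR complexes, had log2 ratios of 0.22, 0.31 and 0.95 with siNT and 0.69, 0.77 and 0.83 with siRIC, a change of 0.28 ± 0.25 (SE). DEPTOR, an mTOR-binding inhibitor, had 0.38, 0.25 and 0.15 with siNT and 0.74, 0.91 and 0.64 with siRIC. Its groups did not overlap, but at a mean of 1.61 CPM its interval ran from −0.46 to 1.49, and the leave-out change was 0.27 beside 0.52. The kinase MTOR was at −0.22 ± 0.25 (leave-out −0.07), and MAPKAP1 (SIN1), which holds the complex on its substrates, at −0.17 ± 0.20. PRR5 (Protor-1) was at 0.09 ± 0.21 (leave-out 0.22) and its relative PRR5L at −0.26 ± 0.38 (leave-out −0.03). The groups overlapped for all of these except DEPTOR.

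Genes of mTORC1 and its TSC and Rag regulators had 18 of 30 changes above 0, with a median of 0.04 (leave-out 0.04) and 0 called. CASTOR1, the arginine sensor of the pathway, had log2 ratios of 0.09, 0.38 and 0.42 with siNT and 0.35, 0.82 and 0.99 with siRIC, a change of 0.43 ± 0.21 (95% interval −0.02 to 0.88). Each siRIC culture was above the siNT culture of its number, although the groups overlapped. RRAGC, a Rag GTPase, was at −0.38 ± 0.25, and TBC1D7, the third subunit of the TSC complex, at −0.30 ± 0.20. Of 15 AGC kinases (AKT, SGK and PKC families with PDPK1, which act in the mTORC2 branch, and the S6 kinases of the mTORC1 branch), 6 were above 0, with a median of −0.07 (leave-out −0.08). The S6 kinase RPS6KB2 was at 0.39 ± 0.26, and RPS6KB1 was at 0.27 ± 0.23 but at 0.03 in the leave-out, with 2 sign changes among the alternatives. PRKCH, a protein kinase C, was at −0.30 ± 0.26.

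ARNT, the dimerization partner of the HIF alpha subunits and AHR, is one of the genes of interest in the study. It had a log2 change with siRIC of −0.97 ± 0.16 in polysomal and −0.72 ± 0.16 in total RNA. ARNT passed edgeR's test in polysomal RNA (adjusted p = 0.0107) and did not pass in total RNA (adjusted p = 0.0754). Whether the fractions differ is tested by the ratio change. Its log2 ratio was −0.13, 0.12 and −0.33 with siNT and −0.70, −0.09 and −0.29 with siRIC. The groups overlapped, with siRIC culture 1 the lowest of the 6. The change was −0.25 ± 0.23 (95% interval −0.73 to 0.23, unadjusted p = 0.284), and −0.12 in the leave-out. It was below 0 in the 26 alternative settings, from −0.42 to −0.09. ARNT lies on GRCh38 chromosome 1 at 150809713 to 150876599.

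Of the 13 measured genes for ARNT and other bHLH-PAS factors and their coactivators, 10 had a change below 0, with a median of −0.13 (leave-out −0.12) and 0 called. NCOA1, a coactivator, was at −0.37 ± 0.23 (leave-out −0.58). CLOCK, a circadian factor, was at 0.36 ± 0.24 (leave-out 0.12), and its siRIC culture 1 had a ratio of 0.44 beside −0.16 and −0.38 in the others. SIM2, a developmental factor that dimerizes with ARNT, was at −0.30 ± 0.26 (leave-out −0.13, with 1 sign change among the alternatives). HIF1A, the oxygen-regulated partner of ARNT, had ratios of 0.21, 0.14 and −0.07 with siNT and 0.26, 0.23 and −0.09 with siRIC, a change of 0.04 ± 0.22 (leave-out 0.02). The HIF1A values of equal numbers lay close together in both groups.

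HIF target genes outside glycolysis were 1 of the 2 gene lists, of 31, whose median ratio did not overlap between the groups. Of all genes tested, 3.04% had every siRIC culture above every siNT culture and 4.63% below. Nothing is therefore read from the count of lists. The HIF list's median log2 ratio was 0.25, 0.33 and 0.19 in the siNT cultures and 0.04, 0.14 and 0.15 in the siRIC cultures, the lowest in siRIC culture 1. Of 24 genes, 14 had a change below 0, 0 were called and the median change was −0.06, with a leave-out median of −0.03. BHLHE40, a transcriptional repressor, was at −0.26 ± 0.21 (leave-out −0.13). VEGFA, the angiogenic growth factor, was at −0.20 ± 0.19 (leave-out −0.08) and EGLN3, a prolyl hydroxylase, at −0.21 ± 0.23 (leave-out −0.08). INSIG2, which retains SREBP in the endoplasmic reticulum, was at 0.24 ± 0.25 and turned to −0.01 in the leave-out. Glycolytic genes had 12 of 23 changes above 0 and a median of 0.00. In the leave-out 17 of 23 were above 0 and the median was 0.18, and the sign of the median turned in 13 of 26 alternative settings. PGK1, phosphoglycerate kinase, had ratios of 1.06, 1.15 and 0.93 with siNT and 0.81, 0.92 and 0.75 with siRIC, with no overlap and a change of −0.22 ± 0.18. LDHA was at −0.24 ± 0.20 and TPI1 at 0.18 ± 0.22 (leave-out 0.30).

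Sphingolipid genes, also of interest in the study, had 23 of 40 changes above 0, a median of 0.03 (leave-out −0.04) and 0 called. CERS1, a ceramide synthase, had the smallest p of the list. Its log2 ratio was −0.43, −0.00 and 0.42 with siNT and 0.41, 0.64 and 0.65 with siRIC. Each siRIC culture was above the siNT culture of its number, and the groups overlapped at siNT culture 3. The change was 0.58 ± 0.27 (95% interval 0.02 to 1.14, unadjusted p = 0.0428, adjusted p = 1), at a mean of 7.40 CPM. In polysomal RNA CERS1 was at 0.00 and in total RNA at −0.58. The other measured ceramide synthases were closer to 0, with CERS2 at −0.03 ± 0.19 (leave-out 0.09), CERS4 at 0.18 ± 0.27, CERS5 at −0.10 ± 0.18 (leave-out −0.06) and CERS6 at 0.15 ± 0.24 (leave-out −0.08). S1PR2, a sphingosine-1-phosphate receptor, was at 0.59 ± 0.35. SGMS2, a sphingomyelin synthase, was at 0.33 ± 0.27 (leave-out 0.12).

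**Figure D2:**
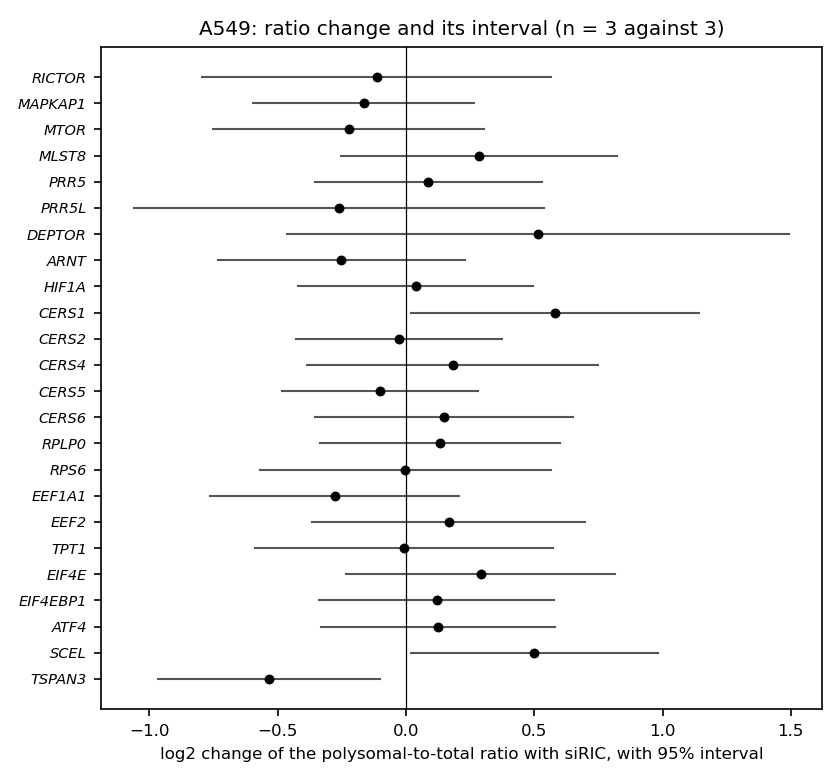
Points are the log2 change of the polysomal-to-total ratio with siRIC for 24 genes (mTORC2 subunits, ARNT and HIF1A, ceramide synthases, translation genes, ATF4, SCEL and TSPAN3). Lines are the 95% intervals of edgeR's fit, with n = 3 libraries in each of 4 groups and the libraries of a culture not paired. The intervals of CERS1, SCEL and TSPAN3 leave out 0 before adjustment over genes, and DEPTOR and PRR5L, the least abundant, have the widest.

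The 5′ TOP messages were examined with their annotated starts, since the tract is at the first bases of the message. A start was counted as a pyrimidine run where its first base is C and at least 4 more bases after it are C or T. On the strand of the gene, in windows of 30 bases (10 before the start and 20 from it on), 1429 of 35116 annotated RefSeq starts (4.07%) had such a run, as had 47 of 78 starts of ribosomal protein genes (60.3%). The windows of 5 well-studied 5′ TOP genes are shown to let the tract be seen, with that of RICTOR for comparison. Where a gene had several annotated starts, a start with the run was shown if there was any. Capitals mark the run, all are written 5′ to 3′ on the minus strand, and the sequences and positions are RefSeq's for GRCh38.p14. The starts are annotated ones, and those used in A549 were not measured here.
RPLP0 (chr12:120201092-120201121): ggcgcgaggcCCTTCTCTCgccaggcgtcc
RPS6 (chr9:19380217-19380246): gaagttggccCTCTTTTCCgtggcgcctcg
EEF1A1 (chr6:73521013-73521042): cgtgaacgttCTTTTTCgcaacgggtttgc
EEF2 (chr19:3985444-3985473): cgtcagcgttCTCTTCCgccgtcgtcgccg
TPT1 (chr13:45341164-45341193): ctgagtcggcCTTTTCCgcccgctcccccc
RICTOR (chr5:39074380-39074409): ggtttccggtgttgtgactgaaacccgtca

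The 5 shown 5′ TOP genes did not move in one direction. RPLP0, a protein of the ribosomal stalk, had log2 ratios of −0.50, −0.32 and 0.09 with siNT and −0.16, −0.15 and −0.02 with siRIC, a change of 0.13 ± 0.22. RPS6, the small-subunit protein that S6 kinase phosphorylates, was at 0.00 ± 0.27 (95% interval −0.57 to 0.56, leave-out −0.20). EEF1A1, which brings aminoacyl-tRNA to the ribosome, was at −0.28 ± 0.23 (leave-out −0.44), with siNT ratios of −0.23, −0.22 and −0.35 and siRIC ratios of −0.36, −0.62 and −0.70. All 3 siRIC values of EEF1A1 were below the siNT values. EEF2, the translocation factor, was at 0.17 ± 0.25 (leave-out 0.40) and TPT1 at −0.01 ± 0.27 (leave-out −0.28). With all libraries, none of these intervals reached −1 or 1.

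Cytosolic ribosomal protein genes had a change above 0 in 62 of 79, with a median of 0.09 and 0 called. Their median log2 ratio by culture was 0.02, −0.01 and 0.24 with siNT and 0.25, 0.13 and 0.08 with siRIC, so the groups overlapped. In the leave-out the median change was 0.01 and 40 of 79 were above 0. RPL26, RPL7 and RPS3A, which had the smallest p among those above 0, were at 0.41 ± 0.27, 0.39 ± 0.28 and 0.38 ± 0.28, with leave-out values of 0.21, 0.12 and 0.15. In siRIC culture 1 their ratios were 0.96, 1.08 and 1.05, against 0.33 to 0.55 in the other siRIC cultures. RPS4X was at −0.36 ± 0.26, with all 3 siRIC cultures below the siNT cultures. Counts of ribosomal protein genes are uncertain, because near-identical pseudogene copies can share their reads.

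Translation factors and other 5′ TOP messages had 8 of 20 changes above 0 and a median of −0.03 (leave-out −0.10). EIF3E, an initiation factor subunit, had ratios of 0.33, 0.44 and 0.59 with siNT and 1.24, 0.74 and 0.67 with siRIC, with no overlap and a change of 0.47 ± 0.24 (95% interval −0.03 to 0.97, leave-out 0.24). PABPC1, the poly(A)-binding protein, was at −0.25 ± 0.20, and EIF2S3, a subunit of the initiator tRNA carrier, at −0.29 ± 0.20. Genes were also split by the start instead of by list, where a pyrimidine run at any annotated start counted. The 814 tested genes with a run had a median change of 0.04, with 56.8% above 0. Among these genes with a run, 0 were called and 8 had an unadjusted p under 0.05. The 10435 tested genes without one had a median of 0.02, with 53% above 0 and 98 at an unadjusted p under 0.05, beside 1.15% of all genes tested. Among ribosomal protein genes, 47 with the run had a median of 0.08 and 16 without it 0.06. Of the 79 ribosomal protein genes 63 had an annotated start in the table used.

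No gene of the other translation lists was called. Cap-binding initiation factors and 4E-BPs had 12 of 26 changes above 0 and a median of −0.01 (leave-out −0.03). EIF4EBP3, a 4E-BP at a mean of 0.470 CPM, had the lowest, −1.33 ± 0.88 (95% interval −3.19 to 0.53). EIF4E, the cap-binding protein, had ratios of 0.61, 0.45 and 0.74 with siNT and 1.35, 0.61 and 0.59 with siRIC, so that siRIC culture 1 alone was above the siNT values. Its change was 0.29 ± 0.25 (leave-out 0.05). EIF4G3, a scaffold of the cap complex, was at −0.33 ± 0.25 and MKNK1, a kinase of EIF4E, at −0.33 ± 0.23 (leave-out −0.13). Ribosome biogenesis factors had 14 of 38 above 0 and a median of −0.08 (leave-out −0.03). NOLC1, a nucleolar chaperone, was at −0.40 ± 0.25. The groups of POLR1B, an RNA polymerase I subunit, and NOP56, a snoRNP core protein, did not overlap, and their changes were −0.32 ± 0.21 and −0.40 ± 0.29. Aminoacyl-tRNA synthetases had 6 of 20 above 0 and a median of −0.10 (leave-out −0.08). Their median ratio was 0.13 in siRIC culture 1 and 0.28 to 0.57 in the other 5 cultures. FARSB, a phenylalanyl-tRNA synthetase subunit, was at −0.33 ± 0.24 and MARS1, the methionyl-tRNA synthetase, at −0.29 ± 0.23 (leave-out −0.13).

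Stress genes known for regulated translation gave no call. Of ATF4 targets and messages with upstream reading frames, 17 of 29 were above 0, with a median of 0.06 (leave-out −0.0026). IFRD1, whose message has an upstream reading frame, was at 0.35 ± 0.23 and TRIB3, a pseudokinase, at 0.26 ± 0.19. ER chaperones and unfolded protein response genes had 9 of 27 above 0 and a median of −0.04 (leave-out −0.09). XBP1, the factor spliced by IRE1, had ratios of 0.47, 0.50 and 0.45 with siNT and 0.22, 0.24 and 0.13 with siRIC. The XBP1 groups did not overlap, with a change of −0.27 ± 0.18 (95% interval −0.66 to 0.11). Selenoproteins, whose synthesis recodes a stop codon, had 17 of 21 above 0 and a median of 0.06. In the leave-out this was 10 of 21 and −0.02.

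Metabolic lists spread around the value over all genes. NRF2 targets, antioxidant and detoxifying genes, had 14 of 34 above 0 and a median of −0.03 (leave-out −0.0039), with a median log2 ratio of 0.36 in siRIC culture 1 and 0.43 to 0.69 elsewhere. AKR1B10, an aldo-keto reductase, had ratios of 0.91, 1.00 and 0.83 with siNT and 0.83, 0.70 and 0.53 with siRIC, a change of −0.23 ± 0.19. UGDH, which makes UDP-glucuronate, was at −0.28 ± 0.20 and FTH1, the ferritin heavy chain, at −0.25 ± 0.26. Cholesterol synthesis had 16 of 26 above 0 and a median of 0.05 (leave-out 0.07), and fatty acid synthesis 8 of 16 and 0.01 (leave-out −0.0037). ACACB, an acetyl-CoA carboxylase, had ratios of −0.74, −0.82 and −0.93 with siNT and −1.39, −1.15 and −1.17 with siRIC, with no overlap and a change of −0.41 ± 0.21. Lysosomal genes had 11 of 31 above 0 and a median of −0.07, which turned to 19 of 31 and 0.06 in the leave-out. MCOLN1, a lysosomal calcium channel, was at 0.37 ± 0.23 (leave-out 0.55) and GUSB, a glucuronidase, at −0.31 ± 0.21 (leave-out −0.17). The median ratio of lysosomal genes was lowest, 0.17, in siRIC culture 1.

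Mitochondrially encoded and nuclear genes of the mitochondrion lay far apart with either siRNA. The 13 mitochondrially encoded mRNAs, translated inside the organelle, had median log2 ratios of −3.02, −3.18 and −3.38 with siNT and −3.35, −2.70 and −3.44 with siRIC. Their changes had a median of −0.08 (leave-out 0.03), from −0.36 to 0.10. Nuclear genes of oxidative phosphorylation had 45 of 75 above 0 and a median of 0.03, and mitochondrial ribosomal proteins 51 of 74 and 0.08. In the leave-out these medians turned to −0.08 and −0.03. CYC1, cytochrome c1, had ratios of 0.96, 1.41 and 1.61 with siNT and 1.66, 1.69 and 1.77 with siRIC, with no overlap and a change of 0.36 ± 0.23. NDUFA10, a complex I subunit, was at −0.35 ± 0.20 and MRPL1, a mitochondrial ribosomal protein, at 0.32 ± 0.25 (leave-out 0.09).

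Nuclear noncoding RNAs, which mostly stay off ribosomes, had 6 of 14 above 0 and a median of −0.04 (leave-out −0.13). MEG3, an imprinted long noncoding RNA, had ratios of −2.05, −1.85 and −2.31 with siNT and −3.01, −2.83 and −2.34 with siRIC. The groups did not overlap, and the change was −0.66 ± 0.31 (unadjusted p = 0.0470, adjusted p = 1) at a mean of 3.84 CPM. FTX was at 0.66 ± 0.36 and NEAT1, the paraspeckle scaffold, at −0.28 ± 0.31. The snoRNA host transcripts had 7 of 17 above 0 and a median of −0.04 (leave-out −0.14), with SNHG16 at −0.30 ± 0.26.

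Cell cycle genes held the other list whose medians did not overlap. DNA replication and G1/S genes had median log2 ratios of 0.43, 0.46 and 0.42 with siNT and 0.26, 0.35 and 0.29 with siRIC. Of 30 genes, 18 had a change below 0, 0 were called and the median change was −0.06 (leave-out −0.01). MCM10, a replication initiation factor, had ratios of 0.22, 0.16 and −0.06 with siNT and −0.26, −0.08 and −0.38 with siRIC, with no overlap and a change of −0.35 ± 0.20. MCM3, a helicase subunit, was at −0.39 ± 0.24 (leave-out −0.26) and CDC6, a licensing factor, at −0.26 ± 0.20. CCNE2, a cyclin of the G1/S transition, was at 0.38 ± 0.26 (leave-out 0.22).

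Mitotic genes were divided, with 13 of 28 above 0 and a median of −0.02 (leave-out 0.01). TTK, the spindle checkpoint kinase MPS1, had ratios of 0.55, 0.43 and 0.73 with siNT and 1.07, 0.82 and 0.97 with siRIC. All 3 siRIC values were higher, and the change was 0.39 ± 0.18 (unadjusted p = 0.0493, adjusted p = 1). KIF20A, a kinesin of cytokinesis, had −0.21, −0.11 and −0.51 with siNT and −1.03, −0.79 and −0.55 with siRIC. All 3 siRIC values were lower, and the change was −0.49 ± 0.24. PRC1, which bundles the central spindle, was at −0.30 ± 0.18. Histone genes of S phase had 10 of 23 above 0 and a median of −0.03 (leave-out −0.06). H2BC17, at a mean of 0.404 CPM, had the lowest change of the list, −1.62 ± 0.75 (unadjusted p = 0.0459, adjusted p = 1).

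Signalling lists completed the set. Immediate early and ERK feedback genes had 8 of 27 above 0 and a median of −0.05 (leave-out 0.01). KLF10, a transcription factor, was at −0.26 ± 0.18 (leave-out −0.17) and ETV4, an ETS factor, at 0.23 ± 0.19. YAP and TEAD targets had 8 of 19 above 0 and a median of −0.09 (leave-out −0.03), with the matricellular proteins CCN1 and CCN2 at −0.33 ± 0.24 (leave-out −0.16) and −0.30 ± 0.22. Targets of p53 had 19 of 26 above 0 and a median of 0.11 (leave-out 0.09). ZMAT3, an RNA-binding protein, was at 0.38 ± 0.28 (leave-out 0.11) and XPC, a DNA repair factor, at −0.30 ± 0.25 (leave-out −0.12). Integrins had the highest median of the 31 lists, 0.14 (leave-out 0.15), with 10 of 15 above 0. ITGA3 and ITGB4, subunits of laminin receptors, were at 0.22 ± 0.32 and 0.29 ± 0.41, with leave-out values of 0.46 and 0.50. Over all 31 lists, medians ran from −0.13 to 0.14, and in 27 lists the median changed sign under some alternative setting.

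**Figure D3:**
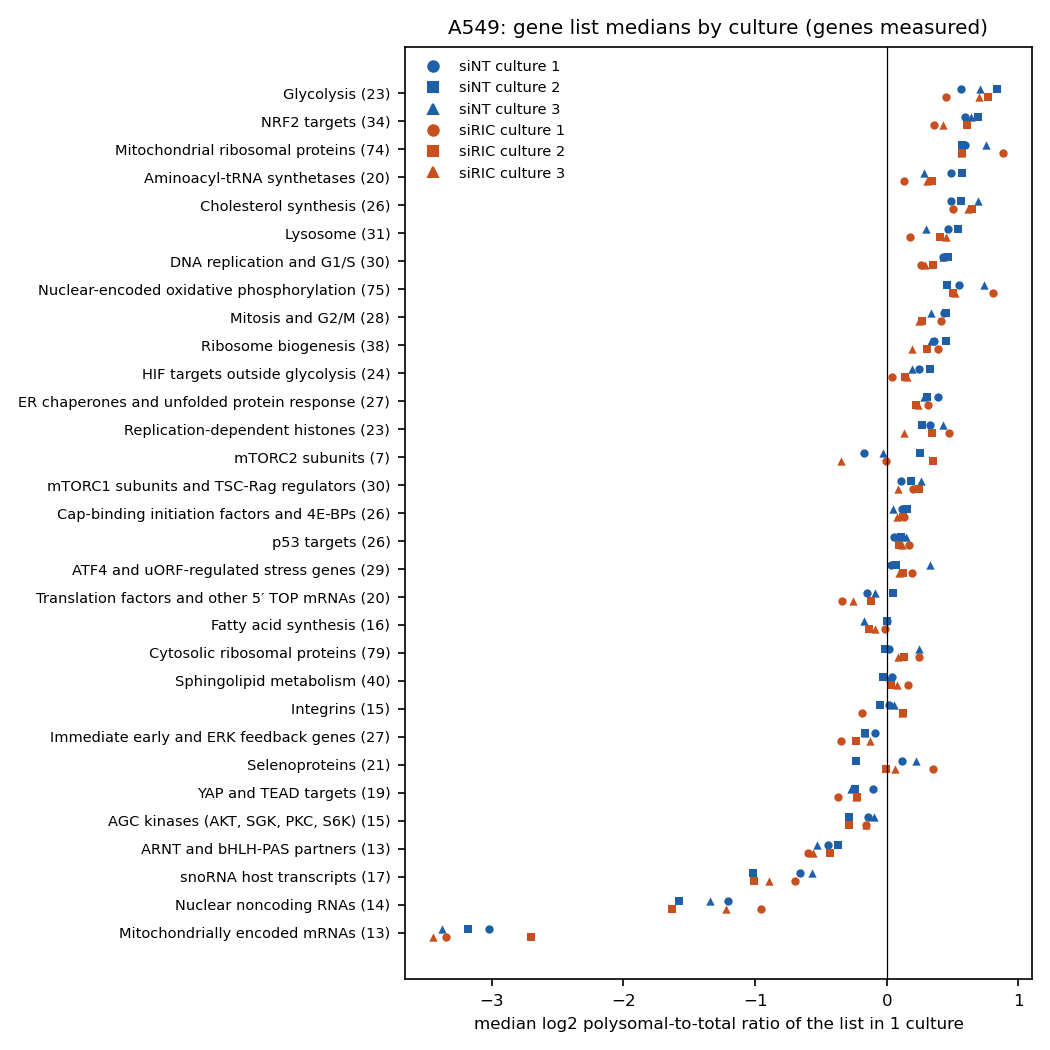
Each row is a gene list with the number of genes measured, and each symbol is the list's median log2 polysomal-to-total ratio in 1 culture (blue for siNT, orange for siRIC, the shape giving the culture number). Lists differ from each other far more than the siRNAs do. The siRIC symbols all lie below the siNT symbols for HIF targets outside glycolysis and for DNA replication and G1/S.

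The single genes with the smallest p are described next although none passed the test. Their mean reached 5 CPM, with the same sign of the difference in all 3 numbers. On the lower side, DDX19A, an RNA helicase of mRNA export, had log2 ratios of 0.34, 0.31 and −0.13 with siNT and −0.54, −0.21 and −0.64 with siRIC. All 3 siRIC values were below the siNT values, and the change was −0.65 ± 0.22 (unadjusted p = 0.00902, adjusted p = 1). Its polysomal CPM was 59.3, 63.3 and 43.9 with siNT and 30.5, 40.1 and 34.1 with siRIC, while its total CPM was 46.9, 51.0 and 48.3 against 44.3, 46.4 and 53.1.

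FTO, an RNA demethylase, had ratios of 0.02, 0.01 and −0.31 with siNT and −0.81, −0.48 and −0.55 with siRIC, a change of −0.53 ± 0.19 (unadjusted p = 0.0141, adjusted p = 1). YTHDC1, a nuclear RNA-binding protein, had 0.27, 0.20 and −0.17 with siNT and −0.31, −0.40 and −0.47 with siRIC, a change of −0.51 ± 0.19 (unadjusted p = 0.0154, adjusted p = 1). Neither gene's groups overlapped. SRSF5, a splicing factor, was at −0.55 ± 0.21, and its siNT culture 3, at −0.53, lay within the siRIC range of −0.80 to −0.48. RHBDD1, a rhomboid protease, had −0.66, −0.45 and −0.91 with siNT and −1.22, −1.37 and −1.17 with siRIC, without overlap and with a change of −0.57 ± 0.20. BCO1, a carotenoid oxygenase, was at −0.68 ± 0.23, TAF3, a subunit of TFIID, at −0.57 ± 0.22, RABL2A, a small GTPase, at −0.63 ± 0.25 and DOCK1, an activator of RAC, at −0.52 ± 0.21.

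On the higher side, CENPQ, a centromere protein, had log2 ratios of 0.94, 0.99 and 1.24 with siNT and 1.88, 1.55 and 1.42 with siRIC. All 3 siRIC values were above the siNT values, and the change was 0.58 ± 0.23 (unadjusted p = 0.0213, adjusted p = 1). Its polysomal CPM was 17.7, 16.6 and 19.7 with siNT and 36.4, 26.1 and 24.2 with siRIC, beside 8.27 to 9.85 CPM in all total libraries. AP1AR, an adaptor of AP-1 vesicle coats, had −0.74, −0.82 and −0.68 with siNT and −0.19, −0.27 and −0.46 with siRIC, with no overlap and a change of 0.45 ± 0.18. HMGN5, a nucleosome-binding protein, was at 0.74 ± 0.28, and FOXN2, a forkhead factor, at 0.60 ± 0.25 (leave-out 0.38). In both, siRIC culture 1 was the highest of the 6, at 1.44 and 0.86. SNPH, syntaphilin, which anchors mitochondria, was at 0.55 ± 0.22.

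The remaining 5 of the 10 higher genes have near-identical copies or overlapping entries. They are SLX1B at 2.25 ± 0.63, MAGED4 at 2.23 ± 0.91, MATR3 (the entry ENSG00000280987) at 0.84 ± 0.34, the pseudogene DUXAP9 at 0.75 ± 0.28 and RGPD8 at 0.73 ± 0.28. With no filter on low counts, edgeR called SLX1B and MAGED4. SLX1B, a structure-specific nuclease subunit, had ratios of −0.29, −0.11 and −0.42 with siNT and 1.36, 1.24 and 4.54 with siRIC. When its counts were summed with those of its copy SLX1A, the ratios were 1.31, 1.31 and 1.60 with siNT and 1.33, 1.55 and 1.62 with siRIC, which overlap. MATR3 summed over its pair of entries had 0.22, 0.28 and 0.34 with siNT against 0.64, 0.38 and 0.47 with siRIC, which do not overlap. For DUXAP9, RGPD8 and the 10 lower genes no such sums were made, so reads shared with copies were not examined there. None of the 20 genes changed sign in the 26 alternative settings. These settings reuse the libraries that chose the genes for a sign held in every number, so nothing is read from this.

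**Figure D4:**
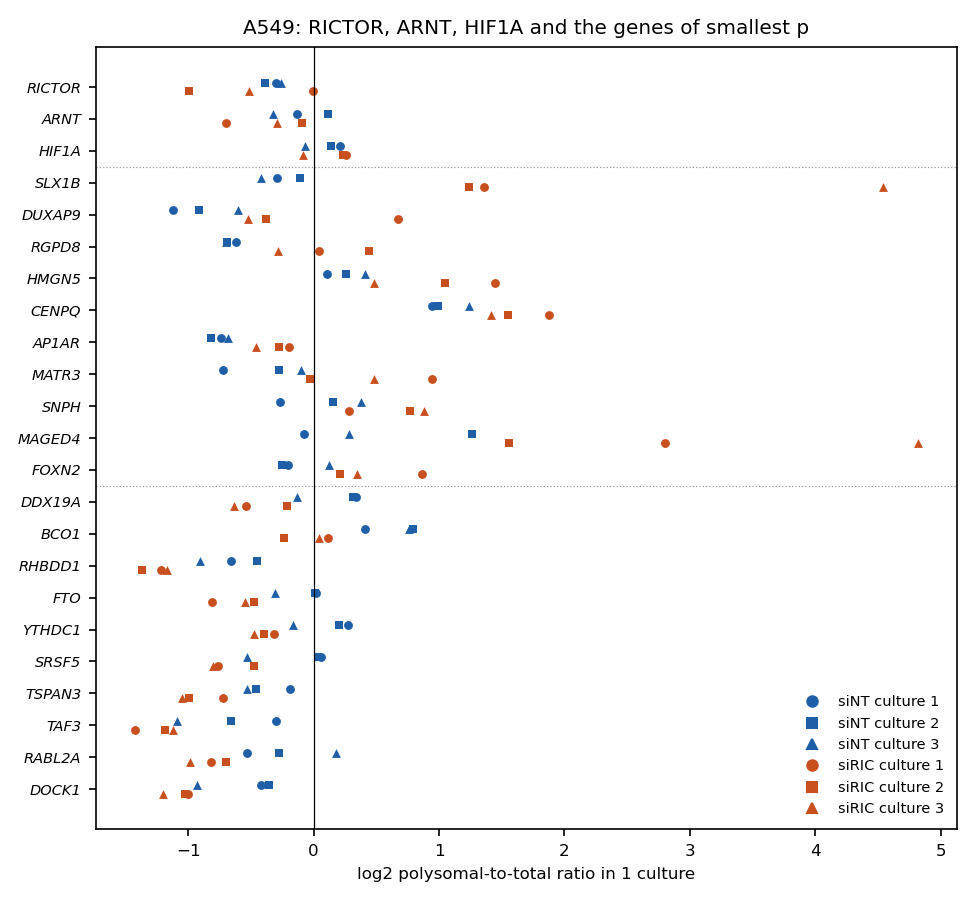
Each symbol is the log2 polysomal-to-total ratio of 1 gene in 1 A549 culture (blue for siNT, orange for siRIC, the shape giving the culture number), for RICTOR, ARNT and HIF1A, then the 10 higher and the 10 lower genes of smallest p. None passed the test. SLX1B and MAGED4 spread most among the siRIC cultures. The siRIC symbols of RICTOR, ARNT, HIF1A, SNPH and SRSF5 overlap those of siNT.

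Genes that did respond to siRIC within a fraction were used to see where a response sat. In polysomal RNA 104 genes (0.676% of 15396) passed, in total RNA 50 (0.325%), and 115 passed in either. With the replicate number as a block the counts were 540 and 258, and without 1 library they were 19 to 456 and 7 to 172, the highest in both without the siRIC polysomal library 1. All 115 had the same sign of change in both fractions, 39 higher and 76 lower. The polysomal change was the further from 0 in 86 of them, a count that the choice of genes bears on, since 65 passed in polysomal RNA alone and 11 in total RNA alone. The ratio change of the 115 ran from −3.57 to 0.95, and for 96 of them its 95% interval lay within −1 and 1. An interval of this kind limits the size of the difference and does not show that the fractions responded alike.

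Of the 115, 5 had an unadjusted p under 0.05 for the ratio change, beside 177 of the 15396 genes tested. The ratio is built from the changes that chose the 115, so nothing is read from this count. The 5 were singled out after their values were seen. TSPAN3, a tetraspanin, had 243, 187 and 182 CPM in siNT and 93.6, 77.8 and 74.1 CPM in siRIC polysomal RNA. Total RNA held 277, 257 and 263 CPM in siNT against 154, 155 and 153 CPM in siRIC. TSPAN3 was lower with siRIC in every pair of libraries, and its log2 ratio went from −0.19, −0.46 and −0.53 to −0.72, −0.99 and −1.05, without overlap. The ratio change was −0.53 ± 0.21 (95% interval −0.97 to −0.10, unadjusted p = 0.0189, adjusted p = 1). The leave-out value was −0.63.

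SCEL, sciellin, a precursor of the cornified envelope, moved the other way. It had 4.82, 5.26 and 5.75 CPM in siNT and 17.9, 15.7 and 18.9 CPM in siRIC polysomal RNA. Total RNA held 3.43, 3.38 and 4.29 CPM in siNT against 8.44, 8.12 and 9.44 CPM in siRIC. SCEL ratios were 0.48, 0.63 and 0.41 with siNT and 1.08, 0.94 and 0.99 with siRIC, without overlap. The change was 0.50 ± 0.23 (95% interval 0.02 to 0.98, unadjusted p = 0.0426, adjusted p = 1). The other 3 were SNPH, given above, and ATP6V1G2-DDX39B at −3.57 and LRRC37A at −2.41, a readthrough entry and a member of a family of near-identical copies, whose counts are uncertain.

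**Figure D5:**
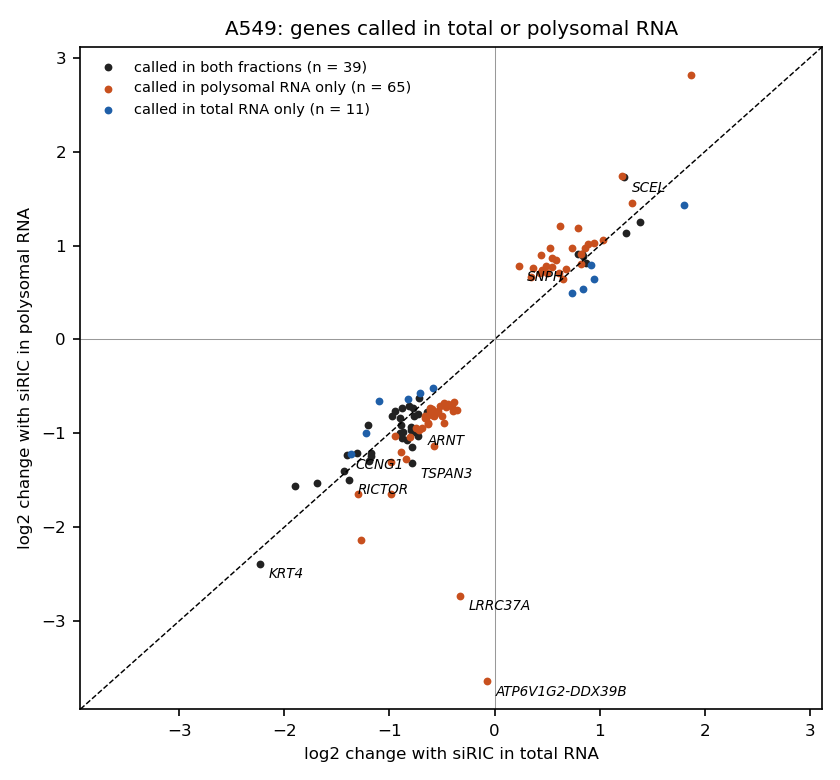
Each point is 1 of the 115 A549 genes called in total or polysomal RNA, with the log2 change with siRIC in total RNA on the x axis and in polysomal RNA on the y axis. The dashed line marks equal changes, and a point's height above or below it is the change of the ratio. All points lie in the lower left or upper right quadrant, and LRRC37A and ATP6V1G2-DDX39B lie furthest below the line.

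In H460 the same test called 0 of 14586 genes (0%), with 89 at an unadjusted p under 0.05 and a median SE of 0.40, larger than the 0.26 of A549. In H460 culture 3 the log2 ratio of RICTOR was 0.46 with siNT and −0.22 with siRIC, beside −0.94 to −0.69 in the other H460 cultures. The part of this culture in the larger SE was not tested. The difference between the lines in the ratio change was tested for 16507 genes and called 0 (0%), with 222 at an unadjusted p under 0.05 and a smallest adjusted p of 1. Without the A549 siRIC polysomal library 1 and the H460 polysomal libraries 3, edgeR again called 0, with 326 of 16821 genes at an unadjusted p under 0.05. The smallest adjusted p of that fit was 0.192. DESeq2 called 4 entries for this difference, INO80B-WBP1, 5_8S_rRNA, RNA5-8SN1 and RNA5-8SN2, and edgeR with no filter on low counts called 39. INO80B-WBP1 overlaps INO80B and WBP1, and the other 3 are ribosomal RNA entries, so their counts are uncertain.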

How the data were processed

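Per the file headers and labels, the authors deposited 1 table of estimated counts per gene (merged salmon counts) without normalization. The submitters' processing notes name bcl2fastq 2.20 and GRCh38. For the salmon version, the annotation, shared reads and filters, the sources used here say nothing. The molecule label is polyA RNA, but the protocol cites a kit for total RNA, stranded and ribosome-depleted, and which applies was not settled. In A549, 9.75% of values had decimals, and 95.1% came to 0.002 or less from a whole number. No column belonged to another sample.

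Estimated counts were rounded, filtered with filterByExpr by group, and scaled by TMM. The 12 A549 libraries were fitted together (4 groups, no block, 8 residual degrees of freedom) with edgeR 4.0.16 (glmQLFit, glmQLFTest) in R 4.3.3. The ratio change is the interaction of siRNA and fraction, and p-values were adjusted by Benjamini-Hochberg over all genes tested (threshold 0.05). Each SE was obtained as the size of the change over the root of its F statistic, and intervals are 95%. Ratios per culture are differences of log2 CPM with a prior count of 2. CPM are scaled by TMM. The scripts were tested on simulated data. DESeq2 1.42.0 and limma 3.58.1 gave alternatives. Starts were read with Python 3.11.15 from RefSeq entries of 250 bases before and 50 after each start.

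The labels give each replicate number as a batch, so the numbers pair the samples. Deviations from group means correlated with r of −0.0073 to 0.666 (12 pairs) between cultures of the same number, 0.134 to 0.501 (6 pairs) within a culture, and −0.677 to 0.231 (36 pairs) between different numbers. Deviations cancel out within a group, so higher correlations within a number make those between numbers lower, and the contrast is partly arithmetic. The A549 library names carry other numbers (3, 4 and 6), whose meaning the sources used here do not give.

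Named were RICTOR, ARNT and HIF1A, then called genes of at least 5 CPM with a standard symbol and 1 sign in all 3 numbers (10 per direction, filled by smallest p), and 2 to 4 members of smallest p per list. All mTORC2 subunits, the ceramide synthases and 5 known 5′ TOP genes were added. Members and lists were chosen with earlier results of these data known. Alternatives were normalization, filter, tool, block and leaving out libraries. Replicate libraries within a group differed by more than sampling noise. Gene positions are RefSeq's for GRCh38. The start sequence of 1 gene is not reported here.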

Additional observations from a re-analysis of the deposited data

Results flagged for a closer look

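For 5 of the genes named in A549, the 3 differences between siRIC and siNT of equal number all had one sign in A549 and the 3 in H460 all had the opposite sign. The mean difference of the log2 polysomal-to-total ratio was 0.80 in A549 and −0.38 in H460 for DUXAP9 (tested difference between lines −1.20, unadjusted p = 0.016), and 0.50 and −0.79 for DEPTOR (−1.40, unadjusted p = 0.0432). It was −0.56 and 0.08 for TAF3 (0.65, unadjusted p = 0.12), −1.38 and 0.37 for H2BC17 (1.92, unadjusted p = 0.0766), and −0.28 and 0.06 for MRPL16 (0.33, unadjusted p = 0.232). edgeR's adjusted p for the difference between lines was 1 for each of the 5. They were picked from all named genes for this pattern of signs, so nothing is read from their count. DEPTOR did not exceed 2.33 CPM and H2BC17 did not exceed 1.07 CPM in any A549 library. MRPL16, a mitochondrial ribosomal protein, had A549 ratios of 0.67, 0.58 and 0.73 with siNT and 0.48, 0.41 and 0.23 with siRIC.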

How the results depend on the processing

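The count of 0 genes for the A549 ratio was also 0 with RLE factors, with limma and with all 24 libraries in one fit. It was 1 with DESeq2 (5_8S_rRNA), 59 with no filter on low counts (30 of them under 1 CPM), and 0 to 2 without 1 library or 1 number. The 2 calls were RHEBP1 and HSPE1-MOB4 without siNT polysomal 2, and BOLA2 and ENSG00000277067 without siRIC polysomal 2 or without number 2. With the number as a replicate block it was 0 (346 genes at an unadjusted p under 0.05) and with culture as block 1 (INO80B-WBP1). The replicate block without siRIC polysomal 1, a fit chosen after seeing the data, called 1 (INO80B-WBP1), with 2019 at an unadjusted p under 0.05 (1242 higher, 777 lower).

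The polysomal count of 104 was 350 with DESeq2, 413 without the filter, 540 with the replicate block and 2401 in the added fit. Without 1 library it was 19, 55 or 54 (siNT polysomal 1, 2 or 3), 69 (siNT total 1), and 456 or 55 (siRIC polysomal 1 or 2). The total count of 50 was 161, 257, 258 and 846 in the same fits, and without 1 library 31 or 30 (siNT polysomal 1 or 3), 12, 15 or 12 (siNT total 1, 2 or 3), 172 (siRIC polysomal 1), and 7, 8 or 15 (siRIC total 1, 2 or 3). The count of 0 for the difference between lines was 39 without the filter and 4 with DESeq2. Signs turned for RICTOR (0.15 without siRIC polysomal 2, 0.0385 without number 2, range without 1 library or number −0.4306 to 0.1507) and for HIF1A in 6 settings (−0.0004, −0.0036, −0.0625, −0.0852, −0.0185 and −0.0012, range without 1 library or number −0.0852 to 0.1949). Of the list members named, RPS6KB1, INSIG2, ITGA3 and ITGB4 turned sign in 2 of 26 settings each and CCN2, SIM2 and XPC in 1 each. The cause of these shifts was not tested. With 3 cultures per siRNA, a ratio change near the median SE of 0.26 was not detectable for a single gene.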

Other observations

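Several ratios far from the rest belong to entries that share sequence. SULT1A3 and SULT1A4, near-identical sulfotransferase genes, had estimated counts of 70 and 1024 in siRIC polysomal 2 and of 1395 and 33 in siRIC polysomal 3. Their summed log2 ratios were 0.69, 0.99 and 1.02 with siNT and 0.57, 1.01 and 0.91 with siRIC, which overlap. The readthrough entry INO80B-WBP1 had an estimated count of 0 in all 3 siNT total libraries and 183, 0 and 211 in siRIC total RNA. Summed with INO80B and WBP1, the ratios were −0.04, 0.02 and 0.29 with siNT and 0.15, 0.38 and 0.43 with siRIC. MAGED4 summed with MAGED4B had 0.43, 0.71 and 0.39 with siNT and 0.22, 0.73 and 1.11 with siRIC. These sums were added after the data were seen.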
